A study of Mus musculus with 2031 samples.

Results

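The transcription factors *Lhx2*, *Emx1*, *Emx2*, *Nr2f1*, *Dbx2*, *Pax6*, *Zbtb20*, *Meis2* and *Dmrta2*, known from the patterning of the forebrain, were followed in single cells of adult mouse cortex and hippocampus. They were chosen by name, as 9 of the 49671 genes in the table of counts. All 9 had counts in astrocytes, the cells that the study sorted with an antibody to the membrane protein ATP1B2, and for 7 of them over 20% of astrocytes were positive, taking the 1781 cells that have one of the authors' subtypes AST1 to AST5 in the list used here, which leaves out some of the cells.

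The mice were C57BL/6J animals at postnatal day 56 with no other treatment or allele. The cortical cells came from 2 suspensions, each from 1 animal of the same litter, and the hippocampal cells from 2 suspensions, each pooled from 4 littermates and each from a further litter of its own, so effects of region, of litter and of pooling cannot be told apart. Smart-seq2, which reads full-length cDNA of a sorted cell without molecular tags, gave 600758 to 3238215 counts on genes per cell (median 1458411, n = 2030 cells). The cortical suspensions gave 461 and 499 astrocytes, the hippocampal ones 393 and 428. AST1 (545 of 657 cells) and AST4 (89 of 91) were mostly hippocampal, AST2 (523 of 555) was mostly cortical, and AST3 (452 cells) was found in both areas. AST5 held 26 cells. The other sorted types were mural cells (39 cortical and 95 hippocampal, the pericytes and smooth muscle cells of vessels), endothelial cells (30), neurons (17, all hippocampal), microglia (11) and oligodendrocytic cells (9).

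In the embryo the forebrain is divided by graded and nested expression of such factors. *Lhx2*, *Emx1*, *Emx2*, *Pax6* and *Dmrta2* act in dorsal progenitors, from which cortex and hippocampus arise. *Nr2f1* and *Emx2* help to set the position of cortical areas, *Zbtb20* is required for the hippocampal fate of neurons, *Meis2* is best known from ventral progenitors, and *Dbx2* from progenitors of the spinal cord. Several remain expressed in the astrocytes that descend from these progenitors. The authors defined types and subtypes by clustering these very counts, so tests between them are not independent of how the cells were grouped.

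Levels are given as CPM, the counts of a gene scaled to all gene counts of the summed cells of a type in a suspension. In astrocytes the highest levels were those of *Zbtb20* (575.5 CPM over all 1781 cells) and *Dbx2* (477 CPM). *Pax6* followed at 83.8, *Lhx2* at 63.4, *Meis2* at 40.95, *Nr2f1* at 38.2, *Emx2* at 17.02, *Emx1* at 9.75 and *Dmrta2* at 1.19 CPM. Between genes such values depend on length. Per kilobase of exon sequence of the GENCODE vM21 models, *Dbx2* was first with a level of 137.5 CPM per kilobase. *Zbtb20*, whose models add up to 30730 bases of exon, had a level of 18.7 and *Lhx2* 14.4 CPM per kilobase. *Nr2f1* (7.49), *Pax6* (7.16), *Emx2* (5.67), *Emx1* (4.46) and *Meis2* (3.40) were close to each other on that scale, and *Dmrta2* had 0.407 CPM per kilobase. The share of astrocytes with at least 1 count ran in nearly the same order, from 84.2% for *Zbtb20* (1500 cells), 69.5% for *Dbx2* and 41.2% for *Lhx2* to 3.31% for *Emx1* (59 cells) and 2.02% for *Dmrta2* (36 cells). A typical astrocyte thus had counts on a few of the members, with a median of 3 of the 9 in either area and a largest number of 7.

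**Figure D1:**
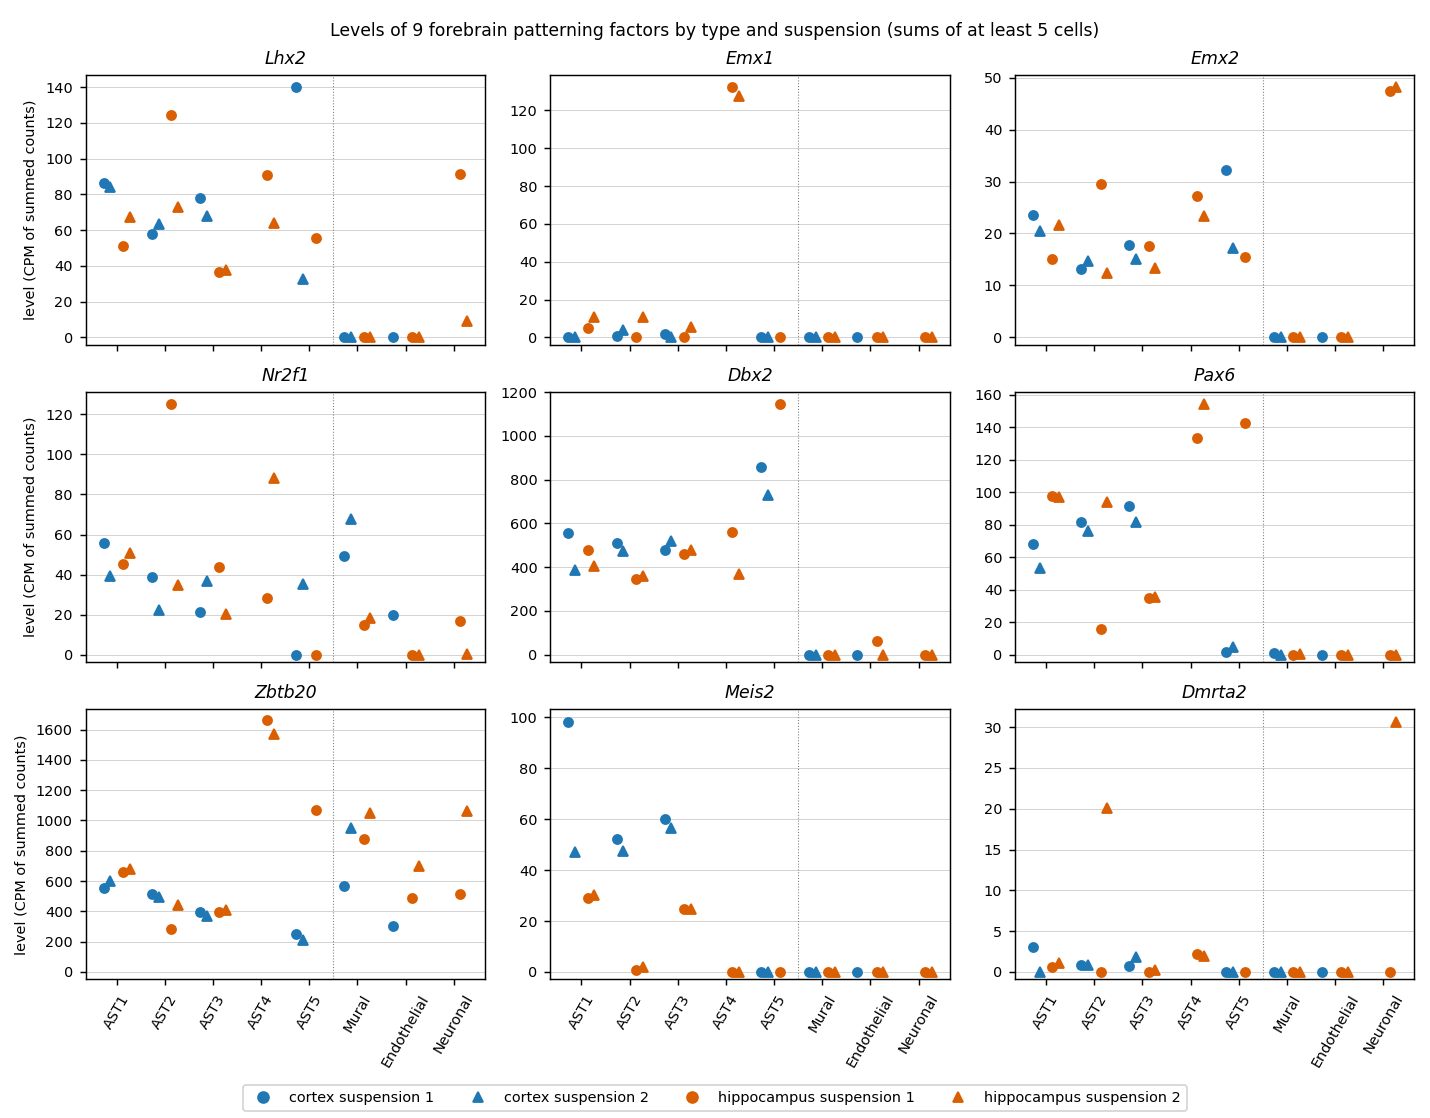
Level of each factor (CPM of summed counts, linear axis that differs between panels) in each cell type and suspension with at least 5 cells. Blue points are cortex and orange points hippocampus, circles suspension 1 and triangles suspension 2. *Emx1* and *Zbtb20* are highest in the 2 AST4 sums. *Meis2* is at or next to 0 there and at 0 in the AST5 sums. *Lhx2*, *Emx2*, *Dbx2*, *Pax6* and *Meis2* are at or near 0 in mural cells.

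The first comparison asked which factors differ between hippocampal and cortical astrocytes. *Meis2*, a homeobox factor of the TALE class (chr2:115863064-116065839, minus strand, GRCm38), had 59.6 and 50.01 CPM in cortex and 24.4 and 24.2 CPM in hippocampus. All hippocampal values lay below all cortical ones. Its fitted log2 fold change, hippocampus against cortex, was −1.15 ± 0.15 (SE), 2.22-fold lower, with an adjusted p of 0.19 in edgeR, so it did not pass. A count of *Meis2* was found in 30.4% (Wilson 95% interval 26.3–34.7) and 25.9% (22.2–29.9) of cortical astrocytes and in 13.5% (10.5–17.2) and 11.9% (9.18–15.3) of hippocampal ones, and these intervals did not overlap between areas. They cover counting error over cells only.

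*Zbtb20*, a zinc finger repressor (chr16:42875881-43642602, plus strand), had 471 and 456 CPM in cortex and 713 and 711 CPM in hippocampus, again without overlap. Its log2 fold change was 0.64 ± 0.05 (SE), 1.56-fold, with an adjusted p of 0.14 in edgeR. The share of cells with a count of *Zbtb20* differed little, at 85.3% and 79.96% in cortex and 86.3% and 86.2% in hippocampus. *Emx1*, a homeobox gene of the dorsal telencephalon (chr6:85187438-85204462, plus strand), had 0.928 and 2.05 CPM in cortex and 16.8 and 22.8 CPM in hippocampus. That is a log2 fold change of 3.75 ± 0.56 (SE; adjusted p = 0.20, edgeR), and it rested on 8 of 960 cortical and 51 of 821 hippocampal cells. *Nr2f1*, an orphan nuclear receptor also called COUP-TFI (chr13:78188973-78199757, minus strand), had 34.1 and 29.3 CPM in cortex and 44.2 and 48.0 CPM in hippocampus (log2 fold change 0.57 ± 0.15, SE; adjusted p = 0.26, edgeR).

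The other factors differed less over all astrocytes. *Lhx2*, a LIM-homeodomain factor (chr2:38339281-38369733, plus strand), had 70.01 and 66.6 CPM in cortex and 54.2 and 60.9 CPM in hippocampus. *Pax6*, a paired-box factor (chr2:105668900-105697364, plus strand), had 83.01 and 74.9 CPM in cortex and 89.1 and 90.6 CPM in hippocampus. *Emx2*, the relative of *Emx1* (chr19:59458372-59465357, plus strand), had 16.4 and 15.5 against 17.1 and 19.7 CPM. For these 3 genes the groups did not overlap, but the fitted log2 differences were small, between −0.22 and 0.23. *Dbx2*, a homeobox gene (chr15:95623563-95655960, minus strand), overlapped between areas, with 510.5 and 484 CPM in cortex and 489 and 417 CPM in hippocampus. *Dmrta2*, a DM-domain factor (chr4:109978053-109983687, plus strand), had 0.688 to 1.92 CPM in all 4 suspensions, and a difference was not detectable at that level.

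In all, 0 of 9 factors were called in edgeR at an adjusted p under 0.05, as were 0 of 19160 genes tested (0%). At an unadjusted p under 0.05 there were 4 of 9 factors (*Zbtb20*, *Meis2*, *Emx1* and *Nr2f1*) and 2609 genes (13.6%). DESeq2 called those same 4 factors, and 9.7% of the genes it tested. The groups did not overlap for 7 of 9 factors and for 46% of all genes.

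The values were also taken within technical batches. Each of 8 sequencing pools held cells of all 4 suspensions. *Meis2* was lower in hippocampus in 8 of 8 pools (log2 ratio of CPM from −5.22 to −0.38, median −1.02) and *Zbtb20* higher in 8 of 8 (0.31 to 0.99, median 0.60). *Emx1* was higher in 8 of 8 pools, of which 5 had a count in both areas. *Nr2f1* was higher in 5 of 8, *Pax6* in 6 of 8, *Emx2* in 5 of 8, *Lhx2* in 4 of 8 and *Dbx2* in 2 of 8 pools. Library PCR ran in 2 thermal blocks, and the first held all cortical and 52 and 61 of the hippocampal astrocytes. With these cells alone the log2 difference was −0.91 ± 0.53 for *Meis2*, 0.53 ± 0.11 for *Zbtb20*, 2.75 ± 1.27 for *Emx1*, 1.44 ± 0.36 for *Nr2f1* and −0.73 ± 0.41 for *Lhx2* (SE), and 0 of 9 factors and 0% of 17015 genes passed in edgeR.

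**Figure D2:**
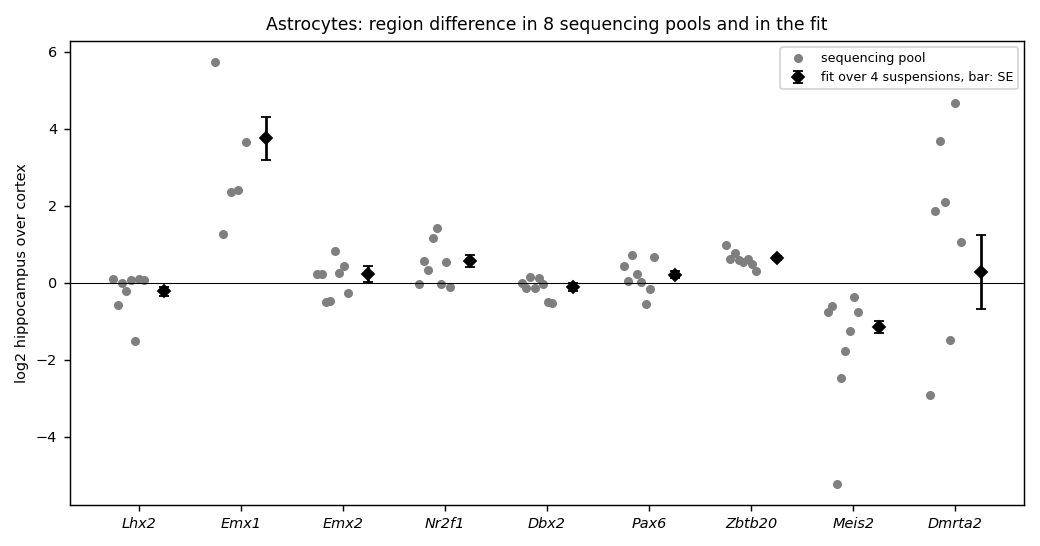
Log2 ratio of the astrocyte level in hippocampus over cortex for each factor. Grey points are the sequencing pools with a count in both areas (8 for each factor, 5 for *Emx1* and 7 for *Dmrta2*) and black diamonds the fitted value over 4 suspensions with its SE. *Zbtb20* is above 0 and *Meis2* below 0 in every pool.

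The areas differ in their mix of subtypes, so the comparison was repeated within AST1 and within AST3. For *Meis2* the groups did not overlap in either. In AST1 it had 98.3 and 47.3 CPM in cortex and 29.1 and 30.2 CPM in hippocampus (log2 fold change −1.25 ± 0.82, SE). That value depended on the cortical suspensions, at −0.66 without the first and −1.67 without the second. In AST3 it had 60.2 and 56.5 CPM in cortex and 24.6 and 24.8 CPM in hippocampus (−1.18 ± 0.82). Cortical AST2 cells had 52.1 and 47.7 CPM, and the 10 and 22 hippocampal AST2 cells had 0.626 and 1.91 CPM. A fit of AST1 and AST3 sums with subtype as a term gave −1.22 ± 0.24 for *Meis2* (adjusted p = 0.47, edgeR). In that fit both sums of a suspension counted as separate replicates of a region. Its SEs, here and below, may therefore be too small.

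The difference of *Zbtb20* was also read within subtypes. In AST1 it had 552 and 602 CPM in cortex and 661 and 677 CPM in hippocampus, without overlap. In AST3 it had 397.5 and 367.3 CPM in cortex and 395 and 410 CPM in hippocampus, and the groups overlapped. In AST2 the order of *Zbtb20* was the other way, with a mean of 362.8 CPM in hippocampus, from only 32 cells, and 503.3 CPM in cortex. That difference was not tested, and AST2 did not enter the fit with subtype as a term. The fit with subtype as a term gave a log2 difference of 0.19 ± 0.07 (SE; adjusted p = 0.69, edgeR), against 0.64 over all astrocytes. On the mean over cells of log2(CPM + 1), fitted with limma, it was 0.75 in AST1, −0.97 in AST3 and 0.77 over all astrocytes, and none passed. *Emx1* had no count in the 57 and 55 cortical AST1 cells and 4.91 and 10.5 CPM in hippocampal AST1. The hippocampal level came from 12 of 545 cells (2.20%), and 0 cortical cells allows a share of up to 2.68%, so a difference in the share of cells was not detectable. With the AST4 cells left out, a choice made after seeing the data, astrocytes had 0.932 and 2.05 CPM of *Emx1* in cortex and 3.76 and 9.38 CPM in hippocampus. *Zbtb20* then had 471 and 456 CPM in cortex and 606 and 601 CPM in hippocampus. The areas then overlapped for *Pax6* (82.45 and 74.91 against 84.07 and 82.43 CPM) and *Emx2* (16.44 and 15.47 against 15.91 and 19.24 CPM).

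*Lhx2* was lower in hippocampus without overlap in AST1 and in AST3, and *Pax6* in AST3. In AST1 *Lhx2* had 86.4 and 84.2 CPM in cortex and 51.2 and 67.1 CPM in hippocampus (log2 fold change −0.49 ± 0.38, SE). It had 78.1 and 67.6 CPM in cortical AST3 and 36.3 and 37.9 CPM in hippocampal AST3 (−0.91 ± 0.39; adjusted p = 1.0, edgeR). In AST2 the order of *Lhx2* was the other way. There *Lhx2* had a mean of 98.7 ± 36.7 CPM (SD) in hippocampus, from 12 of 32 cells, and 60.8 ± 3.93 CPM in cortex. With subtype as a term in the fit of AST1 and AST3 sums, the value for *Lhx2* was −0.70 ± 0.17 (adjusted p = 0.56, edgeR). Over all astrocytes, AST2 included, it was −0.22. *Pax6* had 91.7 and 81.8 CPM in cortical AST3 and 34.7 and 35.6 CPM in hippocampal AST3 (−1.24 ± 0.67; adjusted p = 1.0). In AST1 the order of *Pax6* was the other way, with 68.1 and 53.2 CPM in cortex and 97.6 and 96.8 CPM in hippocampus (0.72 ± 0.66). The difference between these differences was −1.97 ± 0.94 for *Pax6* (adjusted p = 0.99, edgeR). None of this passed the test: 0 of 9 factors were called in AST1, in AST3 or for the difference between them, where 0.00466%, 0.028% and 0% of 21463 genes were. At an unadjusted p under 0.05 there were 1, 1 and 0 factors (*Emx1* in AST1 and *Lhx2* in AST3), and 3.55%, 2.94% and 4.86% of genes. DESeq2 called *Emx1* in AST1 (7.47% of genes) and for the difference (7.18%), and 0 factors in AST3 (6.01%). The groups did not overlap for 5 of 9 factors in AST1 and 5 of 9 in AST3, against 33.9% and 31% of genes. *Emx2*, *Nr2f1* and *Dbx2* had fitted log2 differences between −0.21 and 0.18 within either subtype.

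**Figure D3:**
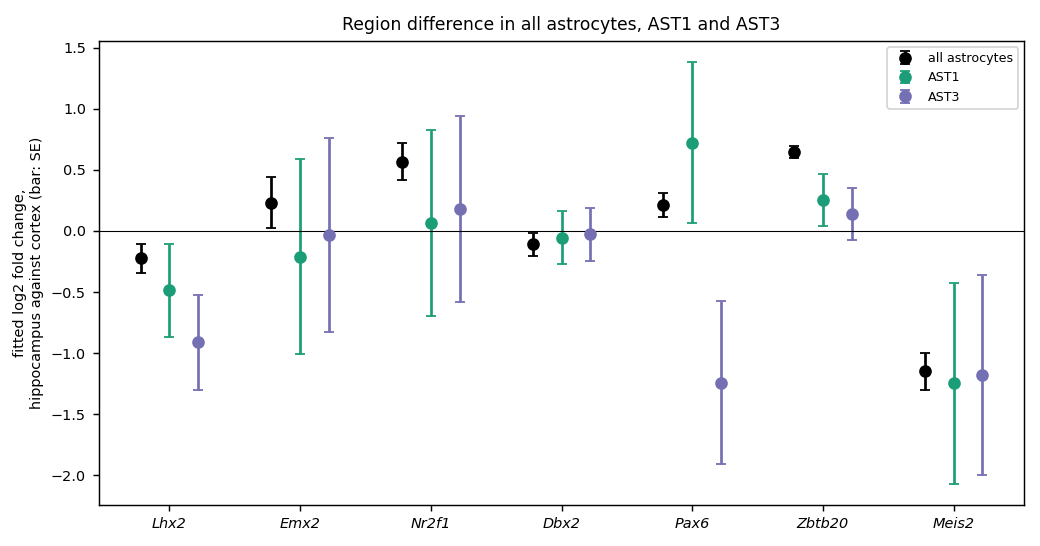
Fitted log2 fold change of hippocampus against cortex, with its SE, over all astrocytes (black), within AST1 (green) and within AST3 (violet); *Emx1* and *Dmrta2*, which had sums at 0, are not drawn. *Meis2* is between −1.25 and −1.15 in all 3 fits, *Zbtb20* is nearer to 0 within subtypes, and *Pax6* is on opposite sides of 0 in AST1 and AST3.

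The levels in AST4 were compared with those in hippocampal AST1. Its cells were hippocampal but for 2, and *Emx1* and *Zbtb20* are among the genes by which the authors described it from these cells, so their levels there are given as a description. *Emx1* had 132.4 and 127.7 CPM in the hippocampal AST4 sums, and no other astrocyte sum of at least 5 cells was above 10.9 CPM. It had a count in 39.02% (Wilson 95% interval 25.7–54.3) and 43.8% (30.7–57.7) of AST4 cells, and in 1.85% and 2.55% of hippocampal AST1 cells. Of the 59 astrocytes with a count of *Emx1*, 37 were hippocampal AST4 cells. *Zbtb20* had 1662 and 1573 CPM in AST4, against 661 and 677 CPM in hippocampal AST1, and a count in 87 of 89 cells. Its median level in the cells with a count was 1412 CPM in AST4 and 555 CPM in hippocampal AST1. *Pax6* was also highest there among the sums of at least 10 cells, with at least 133.5 CPM in both suspensions. *Emx2* had 27.3 and 23.4 CPM.

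*Meis2* was nearly missing from AST4, with 0 counts in the first suspension and 1 count in the second, in 1 of 89 cells (2.08% of the second suspension, Wilson 95% interval 0.369–10.9; 0 of 41 cells in the first, interval up to 8.57). Hippocampal AST1 had 14.4% and 12.04% of cells with a count. Low values were not limited to AST4. *Meis2* had no count in the 26 AST5 cells, which allows a share of up to 11.5%. Hippocampal AST2 cells had 1.52 CPM when pooled, from 3 of 32 cells. Of the 2 cortical AST4 cells, 1 had 10 counts of *Meis2*, and over all 91 AST4 cells its pooled level was 0.0819 CPM. In hippocampus alone the pooled level was 29.6 CPM in AST1 and 0.0076 CPM in AST4. That is a ratio of 3900, with an exact Poisson interval of 699 to 154000 for the single count. Reads without molecular tags are not independent molecules, so this interval covers counting error only. Of the 51 hippocampal astrocytes with a count of *Emx1*, 3 had one of *Meis2* (5.88%), against 13.1% of those without *Emx1*, and most of the 51 were AST4 cells. Within hippocampal AST1 it was 2 of 12, and within AST4 1 of 37. *Zbtb20* was found in 50 of those 51 cells.

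**Figure D4:**
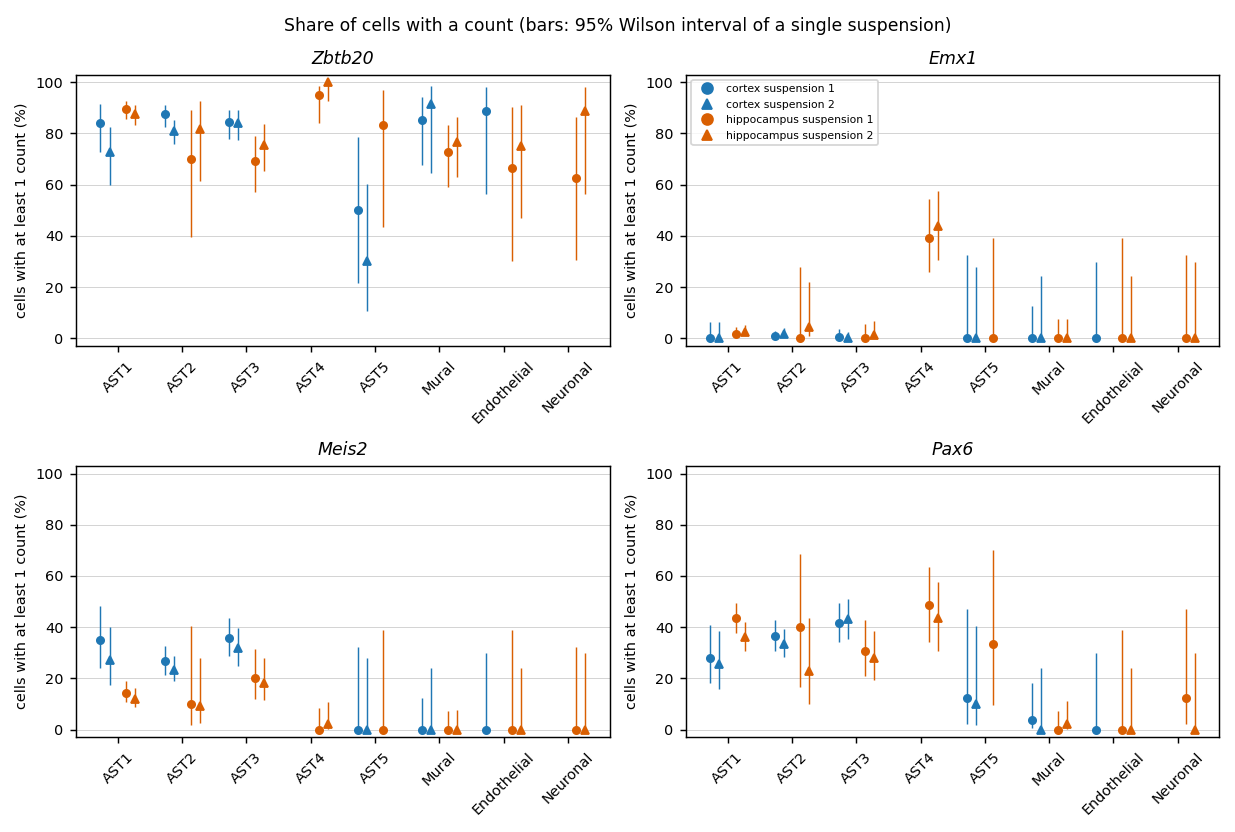
Share of cells with at least 1 count of *Zbtb20*, *Emx1*, *Meis2* and *Pax6* by type and suspension (sums of at least 5 cells), with 95% Wilson intervals. Blue points are cortex and orange points hippocampus. *Emx1* is at 39.02% and 43.8% in AST4 and at or below 4.55% in the other astrocyte sums. *Meis2* is at 0 and 2.08% in AST4 and at 0 in the AST5 sums.

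In the test of AST4 against AST1 within hippocampus, *Meis2* was called lower (adjusted p = 0.00092, edgeR). It was 1 of 9 factors, and 1.36% of all genes were called, 1.27% in that direction. With 1 count in hippocampal AST4, *Meis2* passed the low-count filter through other sums, so a call of it could only be lower. *Zbtb20* had a log2 fold change of 0.94 ± 0.22 (SE; adjusted p = 0.091) and *Emx1* of 3.74 ± 3.38 (adjusted p = 0.85), and neither passed. *Emx1* passed in 1 of 12 alternatives, limma (adjusted p = 3.93e-05), where 8.02% of genes were called. Levels of the sums of AST4 were scaled by TMM, which set its log2 factor 0.33 above that of AST1, so the fitted values lie below the ratios of the CPM. The call of *Meis2* was lost without the first cortical suspension (adjusted p = 0.067 in edgeR), which shares the estimate of the spread, and with limma (adjusted p = 0.10). With the suspension as replicate block the adjusted p was 0.0073. *Zbtb20* passed with DESeq2 (adjusted p = 0.00035, where 11% of genes were called) and in 4 of the other 11 alternatives. In CPM, without the TMM factor, the groups did not overlap for 6 of 9 factors and for 43.8% of genes. *Meis2* lay below, and *Emx1*, *Emx2*, *Pax6*, *Zbtb20* and *Dmrta2* above AST1. The fitted log2 fold change, which includes that factor, was 0.13 ± 0.80 for *Emx2*, 0.24 ± 0.66 for *Pax6* and 0.95 ± 3.06 for *Dmrta2* (SE). None of these 3 passed.

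Marker sums also differed between AST4 and AST1. The 8 neuronal markers summed to 43.97 and 70.5 CPM in AST4 and to at most 10.6 CPM in hippocampal AST1, with *Slc17a7* at 0 in AST4. The 6 markers of newborn neurons summed to at least 166.7 CPM in AST4 and to 33.97 and 41.4 CPM in AST1, with *Dcx* and *Eomes* at 0 in both, and *Neurod1* and *Tubb3* at 0 in AST1 only. The 8 mural markers summed to 126.1 and 445 CPM in AST4 and to 116.8 and 125.4 CPM in AST1. The 5 oligodendrocytic markers summed to 29.5 and 27.2 CPM in AST4 and to 73.5 and 53.8 CPM in AST1, with *Mag* at 0 in both and *Mog* in AST4. The 5 endothelial markers summed to at most 0.0288 CPM in AST4 and to 0.640 and 3.56 CPM in AST1, and the 5 microglial markers overlapped, with 20.5 and 31.6 against 26.9 and 53.4 CPM. The 8 astrocyte markers summed to 29590 and 31720 CPM in AST4 and to 46100 and 46870 CPM in AST1. Their part in these differences was not tested. In the 17 cells typed as neurons, which had 2590 and 3045 CPM of neuronal markers, *Emx1* and *Meis2* had no count, while *Zbtb20* had 512 and 1061 CPM. No count in 17 cells allows a share of up to 17.6%.

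The 300 bases around a RefSeq start site are shown for *Emx1* and *Meis2*, the factors with the most opposite levels in AST4. Each window lies inside the GENCODE span of its gene given above, downstream of the outermost start. Both are from RefSeq on GRCm38.p6, 5′ to 3′, on the plus strand at chr6:85187681-85187980 for *Emx1* and on the minus strand at chr2:116064570-116064869 for *Meis2*. Capitals mark the GC box GGGCGG and the TATA box letters TATAAA on either strand, wherever they lie in the window.
Emx1: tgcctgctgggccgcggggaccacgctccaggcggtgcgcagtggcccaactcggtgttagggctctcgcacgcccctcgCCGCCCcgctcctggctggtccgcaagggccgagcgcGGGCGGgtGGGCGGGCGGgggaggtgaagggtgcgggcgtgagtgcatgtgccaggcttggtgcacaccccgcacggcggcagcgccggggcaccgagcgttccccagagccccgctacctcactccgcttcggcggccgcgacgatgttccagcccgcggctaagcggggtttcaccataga
Meis2: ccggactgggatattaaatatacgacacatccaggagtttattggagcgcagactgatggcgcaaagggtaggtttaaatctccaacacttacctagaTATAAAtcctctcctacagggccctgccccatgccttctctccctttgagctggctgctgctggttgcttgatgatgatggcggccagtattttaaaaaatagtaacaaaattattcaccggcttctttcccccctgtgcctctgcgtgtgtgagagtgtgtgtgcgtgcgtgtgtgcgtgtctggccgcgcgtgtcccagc
The *Emx1* window held GGGCGG 4 times, matches that overlap each other included, and no TATAAA, and 74.0% of its bases were G or C. The *Meis2* window held TATAAA once and no GGGCGG, and 51% were G or C. Of all 32851 windows in the table, 35.7% held GGGCGG and 13.6% TATAAA. Among the 12 windows of the 9 factors, 4 held GGGCGG and 1 held TATAAA.

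Other pairs of subtypes were compared in the same fit. In hippocampus AST3 had lower values than AST1 for *Zbtb20* (395 and 410 against 661 and 677 CPM, log2 fold change −0.75 ± 0.22, SE). *Pax6* was lower too (34.7 and 35.6 against 97.6 and 96.8 CPM, −1.49 ± 0.67), and the adjusted p was 1.0 for both in edgeR. In this comparison 8 of the 9 factors had a log2 fold change below 0, with a median of −0.69 (all genes −0.08). In cortex *Zbtb20* was at 397.5 and 367.3 CPM in AST3, 514 and 492 CPM in AST2, and 552 and 602 CPM in AST1. Of the 9 factors 0 were called for AST3 against AST1 in hippocampus, AST3 against AST2 in cortex or AST1 against AST2 in cortex, where 0.0233%, 0% and 0.103% of genes were called in edgeR. At an unadjusted p under 0.05 the counts were 1 (*Zbtb20*), 0 and 0 factors, and 2.87%, 1.32% and 3.95% of genes. DESeq2 called *Emx1* for AST1 against AST2 (7.74% of genes), where all cortical AST1 cells were at 0. *Dbx2* varied less: over the sums of AST1 to AST4 with at least 10 cells it ran from 347.2 to 559 CPM. In the 8 and 10 cortical AST5 cells *Dbx2* had 859 and 729 CPM, and *Meis2* had no count.

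Mural cells were the only other type with at least 10 cells in each suspension. *Lhx2*, *Emx1*, *Emx2*, *Meis2* and *Dmrta2* had 0 counts in the 39 cortical and 95 hippocampal mural cells, which allows a share of cells with a count of up to 2.24%. Against the level that 3 counts over all mural cells would give, pooled astrocytes were at least 3620-fold higher for *Lhx2*, 2340-fold for *Meis2* and 971-fold for *Emx2*, bounds that cover counting error of reads only. By cells, 41.2%, 20.9% and 24.6% of astrocytes had a count of these 3. For *Emx1* (3.31%) and *Dmrta2* (2.02%) the shares in astrocytes were near or below that limit, so no bound is given, and their calls rest on the reads of few cells. *Dbx2* had 3 counts in mural cells, and the ratio was 27200 with an exact Poisson interval of 9310 to 132000. *Pax6* had 84.4 CPM in astrocytes and 0.334 CPM in mural cells as means over the 4 suspensions. These 7 of 9 factors were called higher in astrocytes, as were 22.5% of 15887 genes, with 27.4% called in either direction (adjusted p from 0.00028 for *Dbx2* to 0.019 for *Pax6*, edgeR). All 7 needed the astrocyte sums to pass the low-count filter. *Lhx2*, *Emx1*, *Emx2*, *Meis2* and *Dmrta2* had 0 counts in mural cells, *Dbx2* had 3, and *Pax6* had 55 in 2 cells. A call of theirs could only be higher in astrocytes, so the 2 shares are not on equal terms. With the suspension as replicate block only *Dbx2* passed (adjusted p = 0.0056, edgeR), where 2.37% of genes were called higher in astrocytes, and the same was true without the first cortical suspension, where 2.63% were.

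*Zbtb20* and *Nr2f1* were not limited to astrocytes. *Zbtb20* had 565.5 and 949 CPM in cortical and 878 and 1048 CPM in hippocampal mural cells, and 79.96% to 86.3% of astrocytes and 72.9% to 91.7% of mural cells had a count. The fitted log2 fold change of astrocytes against mural cells was 0.03 ± 0.17 (SE; adjusted p = 0.94, edgeR), on a scale where the median of all genes was 1.28 and where TMM set the log2 factor of astrocytes 0.60 below that of mural cells. *Nr2f1* had 49.1 and 67.7 CPM in cortical and 14.8 and 18.1 CPM in hippocampal mural cells, from 5 of 39 and 8 of 95 cells, an order opposite to that in astrocytes. Between hippocampal and cortical mural cells its log2 fold change was −1.69 ± 1.54 (SE; adjusted p = 1.0, edgeR). Of the 3 factors tested there (*Nr2f1*, *Pax6* and *Zbtb20*) 0 were called in edgeR, at an unadjusted p under 0.05 or in DESeq2, against 0%, 9.05% and 12.9% of 10614 genes.

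In the few cells of other types, *Zbtb20* was again present, with 487 and 701 CPM in hippocampal endothelial cells. *Lhx2*, *Emx1*, *Emx2*, *Pax6*, *Meis2* and *Dmrta2* had 0 counts in the 30 endothelial cells, which allows a share of up to 10%. The shares of astrocytes with *Emx1* (3.31%) and *Dmrta2* (2.02%) lie below that limit. The 17 neurons held *Emx2* at 47.5 and 48.2 CPM in 3 of 8 and 4 of 9 cells, above every astrocyte sum of at least 5 cells. They held *Lhx2* at 91.2 and 9.16 CPM. In these cells 4 of 8 neuronal markers, *Rbfox3*, *Slc17a7*, *Gad1* and *Gad2*, were at 0. *Dmrta2* reached 30.7 CPM in the second suspension of neurons through 1 cell, and its level there rests on that cell.

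Genes with the most similar pattern were taken by Pearson's r of log2(CPM + 1) over 20 sums of at least 10 cells, which share suspensions and differ most between astrocytes and mural cells. They are given as a description. For *Dbx2* they were *Fam171b* (r = 0.999), *Slc25a18* and *Rfx4* (0.998), for *Lhx2* *Igdcc4* (0.995), *Soga3* (0.991) and *Ptprz1* (0.990), and for *Emx2* *Gldc* (0.994), *E130114P18Rik* (0.993) and *Ramp1* (0.990). *Meis2* was closest to *Aass* (0.975), *Sall3* (0.962) and *Rgs7* (0.956), and *Pax6* to *Magi1* (0.968), *Kcnn2* (0.965) and *Fam69c* (0.962). *Nr2f1* (*Ercc1* 0.922, *Jtb* 0.908, *Mrpl30* 0.880) and *Zbtb20* (*Rpl36a* 0.869, *Rcn1* 0.860, *Eef1d* 0.831) had no gene as close.

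Other patterning genes were read from lists. Of 20 factors of dorsal telencephalic progenitors, all were tested in astrocytes and 0 were called between areas (9 at an unadjusted p under 0.05 in edgeR, as were 13.6% of all genes; median log2 fold change −0.05, all genes 0.01). Against mural cells 16 were tested, 9 were called higher in astrocytes and 2 lower, where 22.5% of all genes were called higher and 27.4% in either direction. Genes at 0 in mural cells could again only be called higher. *Rfx4*, a winged-helix factor, had 186.6 to 255.6 CPM in astrocytes and 0 counts in mural cells, and *Nr2e1*, a nuclear receptor of neural stem cells also called Tlx, had at least 147.7 CPM. *Nr2f2*, the close relative of *Nr2f1*, was called lower in astrocytes, with 9.01 to 25.0 CPM against 340 to 488 CPM in mural cells (log2 fold change −4.10 ± 0.33, SE; adjusted p = 0.00059, edgeR). Of 17 ventral factors 8 were tested between areas in astrocytes and 0 were called (4 at an unadjusted p under 0.05, against the same 13.6%).

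*Olig2*, a basic helix-loop-helix factor of ventral and oligodendrocyte progenitors, shared the gap of *Meis2* in AST4. It had 0 counts in both AST4 sums and 26.2 and 37.5 CPM in hippocampal AST1, where it was found in 8.86% and 11.7% of cells. It was called lower in AST4 (adjusted p = 0.00021, edgeR). *Olig2* also had 0 and 1 count in the cortical AST1 sums, against 58.7 and 54.5 CPM in cortical AST2, and was called higher in hippocampal than in cortical AST1 (adjusted p = 0.019) and lower in cortical AST1 than in AST2 (adjusted p = 0.0036). Both of these calls were lost with any 1 of the 4 suspensions left out (adjusted p from 0.297 to 1.0 and from 0.131 to 0.469, edgeR). All 3 calls were lost with limma and with a minimum of 5 cells per sum. With at most 1 count in each sum of the lower side, all 3 could only go in the direction they took. Between areas over all astrocytes the groups did not overlap, with 37.5 and 38.8 CPM in cortex and 46.04 and 57.5 CPM in hippocampus, and it was not called.

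Of 19 partners and relatives of the factors, 16 were tested between areas and 0 were called (6 at an unadjusted p under 0.05, against 13.6% of all genes). *Meis1*, the nearest relative of *Meis2*, had 0 counts in the AST4 sums and 1.98 and 9.84 CPM in hippocampal AST1, where it was found in 1.85% and 3.28% of cells, and was called lower (adjusted p = 0.024, edgeR). That call was lost with the suspension as replicate block (adjusted p = 0.0535) and without either cortical suspension (0.347 and 0.337), and in 3 other alternatives. With 0 counts in AST4, *Meis1* could only be called lower. The call rests on the reads of 5 and 9 cells, and 0 of 89 AST4 cells allows a share of up to 3.37%, so a difference in the share of cells was not detectable. Of 33 factors of other brain regions and the spinal cord only 3 were tested between areas in astrocytes, the others being too low, and 0 were called (1 at an unadjusted p under 0.05). *Tcf7l2*, a factor of Wnt signalling, was called higher in astrocytes than in mural cells (111.5 to 146.9 against 34.01 to 63.5 CPM; adjusted p = 0.0079, edgeR), a call lost with the suspension as replicate block (0.0593) and without the first cortical suspension (0.0568). Of 14 patterning signals 7 were tested between areas and 0 called (3 at an unadjusted p under 0.05). Against mural cells *Wnt7a* and *Wnt7b* were called higher in astrocytes and *Bmp4* lower, with 0 or 0.00163 CPM in astrocytes and 73.7 to 214.5 CPM in mural cells.

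*Emx2* and *Nr2f1* share exon bases with genes on the other strand that were themselves counted, *Emx2os* and *A830082K12Rik*. *Zbtb20* shares exon bases with *Gm9968* on the other strand and with *Mir568*. The library kit does not mark strand, so reads in those bases cannot be told apart. In astrocytes *Emx2os* had 43.2 CPM, against 17.02 CPM for *Emx2*, and *A830082K12Rik* had 29.7 CPM, against 38.2 CPM for *Nr2f1*.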

How the data were processed

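Single-cell Smart-seq2 libraries of cortex and hippocampus were used. Per the labels the authors checked reads with FastQC 0.11.4, mapped them with STAR 2.5.2b to GRCm38.p5 and counted them with HTSeq (strand setting not given in the sources used here). What they deposited are raw counts for each gene in each cell, neither normalized nor pooled; 92 ERCC spike-ins and the HTSeq summary rows were left out. Per-cell files gave the values; in the table of the whole series the totals of 32 columns were compared and equal, and 1999 columns were not used. Of 2031 cells 2030 had a file. The authors' types were taken as given; 33 cells not in the list used here and 15 without a type entered no comparison.

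Counts were summed per type or subtype and suspension and compared across all genes with edgeR 4.0.16 in R 4.3.3 (TMM, filterByExpr, robust quasi-likelihood), with Benjamini-Hochberg adjustment over all genes tested and calls at an adjusted p under 0.05. SE is that of the log2 fold change. Astrocytes and mural cells were compared between regions on 4 sums each, and with each other on 8 sums with region as a term. Subtypes entered 1 fit of 15 sums of at least 10 cells, with 7 residual degrees of freedom. Alternatives were median-ratio factors, DESeq2 1.42.0, limma 3.58.1 on mean log2(CPM + 1), no filter, thinning to 50000 counts per cell, other cell minimums, 1 thermal block, a subtype term, a replicate block and each suspension left out; values without AST4 cells were added after seeing the data. Floors are 3 counts over the group. Pairing for the block comes from the suspension: both sums of a pair hold cells of the same animals, although their deviations were not correlated (r from −0.01 to 0.02 across genes). The fits were tested on simulated sums in which all genes had the same spread. At the coefficients of variation that edgeR estimated (0.903, 1.33 and 1.28), 0 of 50 genes changed by a log2 fold of 4 were recovered. That held between areas in astrocytes, for AST4 against AST1 and for astrocytes against mural cells. At a coefficient of 0.2, run for the first and second of these, 50 of 50 were recovered. In the data 27.4% of genes were called for astrocytes against mural cells and 1.36% for AST4 against AST1. The simulation, with 1 spread for all genes, therefore does not give the sensitivity for a single gene. Python 3.11.15, numpy, scipy and pandas made the other values. Replicates are suspensions, so p-values measure the spread between 2 suspensions per region. The exceptions are the fit with a subtype term, the fit of 8 astrocyte and mural sums and the fit of 15 subtype sums. In these a suspension entered with more than 1 sum, and its sums counted as separate unless the replicate block was used.

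Named genes are the 9 factors, called genes of 5 lists (at most 6 per list), and for each factor with a count in at least 5% of astrocytes the 3 genes with the highest correlation among those with a mean of at least 10 CPM. *Emx2os* and the other overlapping genes were named after their positions. The members and lists were chosen with earlier results of these data known. Positions are from GENCODE vM21, which is newer than the authors' annotation but on the same assembly.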

Additional observations from a re-analysis of the deposited data

Results flagged for a closer look

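The region difference of *Pax6* went opposite ways in AST1 and AST3: both hippocampal sums lay above both cortical ones in AST1 and below them in AST3. How many of all genes turn in this way was not counted. The difference of the log2 differences was −1.97 ± 0.94 (SE), with an unadjusted p of 0.0636 and an adjusted p of 0.99 in edgeR, so it did not pass. Over 11 alternatives it kept its sign, with adjusted p from 0.10 to 1.0.

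Cells outside the comparisons also held the factors. In the 33 cells not in the list of types, all from the first cortical suspension, 7 of 9 factors had a count, with *Dbx2* at 518 CPM in 26 cells, *Zbtb20* at 641 CPM in 30 cells and *Meis2* at 47.7 CPM in 8 cells. *Emx1* and *Dmrta2* had none. In the 15 cells without a type, 6 of 9 factors had a count, with *Dbx2* at 564 CPM in 7 cells and *Zbtb20* at 292.3 CPM in 3 cells. These cells have no group in the comparisons, and their values are given without a test.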

How the results depend on the processing

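The number of factors called was recomputed under each alternative. For hippocampus against cortex in astrocytes it was 0 of 9, but 4 with DESeq2, 2 with limma (*Emx1* and *Meis2*, where 2.64% of all genes were called) and 1 with thinned cells (*Zbtb20*, 1.38%). DESeq2 called 1 factor (*Emx1*) within AST1, for AST3 minus AST1 and for AST1 against AST2 in cortex. For AST4 against AST1 it was 1, but 2 with median-ratio factors (1.29% of genes called), DESeq2 (11%), limma (*Emx1* and *Zbtb20*, with *Meis2* lost, 8.02%) or a minimum of 20 cells (3.06%), and from 0 to 2 with a suspension left out. For AST3 against AST1 in hippocampus 1 factor (*Zbtb20*) was called with a minimum of 20 cells (0.0748% of genes). For astrocytes against mural cells it was 7, but 1 with the suspension as replicate block, and from 1 to 7 with a suspension left out: only *Dbx2* passed without the first cortical suspension, *Emx1* (adjusted p = 0.0503, edgeR) and *Pax6* (0.0511) were lost without the first hippocampal one, and *Pax6* (0.0984) without the second. Over all genes DESeq2 called more than edgeR: 1858 against 0 between areas in astrocytes, 1373 against 0 in mural cells, 7540 against 4360 for astrocytes against mural cells, 1604 against 1 in AST1, 1289 against 6 in AST3, 1541 against 0 for their difference, 2361 against 1.36% of 21463 for AST4 against AST1, and 1251 against 5, 668 against 0 and 1661 against 22 for the other subtype pairs. No called value turned its sign, and 73 uncalled values did. The replicate block changed no other call of the 9 factors. Of 25 other list genes called between astrocytes and mural cells, 10 were still called with it and 11 without the first cortical suspension, and *Meis1* lost its call in AST4. The cause of each change was not tested.

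The direction of *Emx1*, *Zbtb20*, *Meis2* and *Nr2f1* between areas was kept in all 11 alternatives. The share of astrocytes with a count differed from the main value beyond the suspensions' SD for *Nr2f1* with at least 5 counts or thinned cells and for *Meis2* with thinned cells (−11.9 percentage points).

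With 2 suspensions per region and the spread that edgeR estimated, a missing call between areas does not show that the areas were alike, for small or for large differences. *Emx1* and *Dmrta2* rest on few cells, hippocampal AST2 and cortical AST5 on few cells altogether, and values of types other than astrocytes and mural cells on at most 30 cells each.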
